A study of Rattus norvegicus with 32 samples.

Results

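Intranasal insulin was tested in iron-deficient (ID) rat pups by comparing 8 ID insulin libraries with 9 ID control libraries, 17 of the 32 libraries of the series. The members were chosen by diet and treatment in the sample labels, and every gene of the deposited count table was considered. Each library came from 1 hippocampus of a wild-type pup. The dams of both ID groups ate a purified diet with 3 to 6 ppm iron from gestational day 3 to postnatal day 7. ID insulin pups then received insulin through the nose, given 2 times a day from postnatal day 8 to 21, while ID control pups did not. The iron-sufficient (IS) groups, 8 IS control and 7 IS insulin libraries, are used here to set the spread and to test where the insulin response differed by diet. The labels give collection as postnatal day 7 or 21, without the day of each sample. Insulin pups were treated beyond the earlier day, so their collection was on the later one, but for the controls age and treatment cannot be told apart from the labels. Strain, insulin dose, litter and what control pups received in place of insulin are not given in the labels used here. P-values therefore measure the spread between these pups, some of which may be littermates.

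Perinatal iron deficiency limits the iron that the hippocampus has for heme, iron-sulfur enzymes and myelination while its circuits form. Insulin reaches the brain along the nasal route and binds the insulin receptor. The receptor phosphorylates adaptor proteins, which pass the signal to phosphoinositide 3-kinase and AKT, to the mTOR complex that drives translation, and to the MAPK branch. In the hippocampus this pathway is known for its part in synaptic plasticity, glucose use and the growth of neurons and glia.

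The labelled tissue was checked with markers of hippocampal neurons. Prox1 of dentate granule cells averaged 111 CPM (counts scaled to a common library size, on library sizes scaled by the TMM method) in ID control and 101 CPM in ID insulin, and the pyramidal cell gene Wfs1 averaged 395 and 303 CPM. Total counts were 19810449 to 26182907 per library in ID control and 20329153 to 26782287 in ID insulin. Y-linked transcripts summed to over 10 CPM in 3 of 9 ID control and 4 of 8 ID insulin libraries. ID insulin replicate 3 stood apart from the 7 others of its group, at a chi-square of 38.5 to 85.1 per gene against at most 25.9 for any pair among the others. Markers of neighbouring tissue also varied between libraries, and these values stand beside the gene groups below. The number that opens each sample title coincides with the group, 73 for ID insulin and 69 or 70 for ID control. Its meaning is not given, so a difference between the groups cannot be told apart from a difference between these numbers.

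Insulin-treated ID pups differed from ID controls in 589 of 15439 genes tested, which is 3.82% of them, with 302 higher and 287 lower. These calls rest on edgeR's quasi-likelihood test over all 32 libraries with Benjamini-Hochberg adjusted p under 0.05. Most changes were small: 395 of the 589 (67.1%) were under 1.5-fold. At least 2-fold changes were found in 67 higher and 34 lower genes, 0.654% of all tested. The size of called changes moved with expression level. Their median absolute log2 fold change was 0.93 in genes of low level, 0.36 in those of middle level and 0.21 in those of high level, with equal numbers of genes in each class, while the percentage called was 3.71, 3.73 and 4.00. The median over all tested genes was 0.0039, and the 5th and 95th percentiles were -0.30 and 0.41. The count depended on the fit. It was 19 with 4 tissue list means as covariates, 150 and 232 against title number 69 or 70 alone, and 278 when the 17 libraries were fitted alone. With the second number of each title as a replicate block the count was 9. That fit compares only libraries numbered 1 to 4, since other second numbers occur in only 1 of the groups. No ID insulin library numbered 1 to 4 had over 10 CPM of Y-linked transcripts. ID control replicates 4, 8 and 9, numbered 3 or 4, had 103 to 115 CPM, so the groups differ in sex there. With the Y-linked list mean as a covariate over all 32 libraries the count was 629. Without ID insulin replicates 3 and 5 it was 358. With 1 library left out it ran from 323 (ID control replicate 5) to 806 (ID control replicate 1), and DESeq2 called 819.

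**Figure D1:**
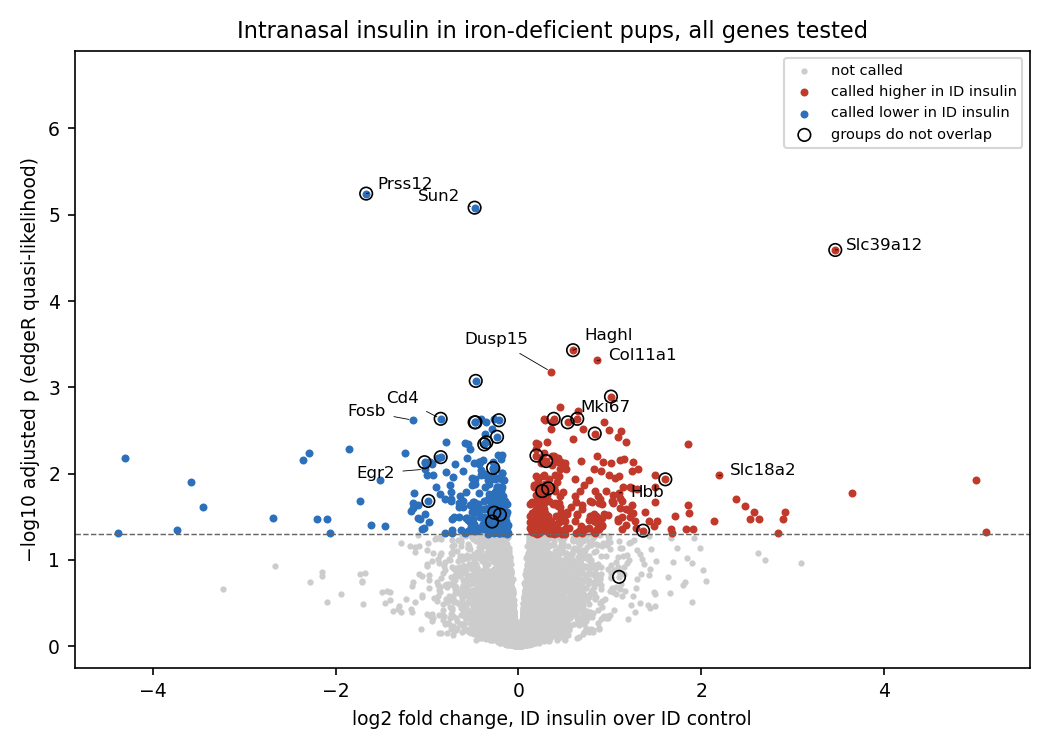
Log2 fold change (x axis) against -log10 adjusted p (y axis) for the 15439 genes tested, with called genes coloured by direction, the dashed line at adjusted p 0.05 and open circles around the 31 genes whose groups did not overlap. Prss12, Sun2 and Slc39a12 lie highest on the plot.

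In 31 genes (0.201% of those tested) every ID insulin library lay on the same side of every ID control library, 14 above (0.0907%) and 17 below (0.110%), and 30 of the 31 were called. Slc39a12, which encodes the zinc importer ZIP12 of the plasma membrane, showed the highest fold among them. Its level was 2.11, 2.84 and 3.95 CPM (lowest, median and highest) in ID control and 19.4, 34.8 and 43.2 CPM in ID insulin. The groups were separated by a wide gap, with a log2 fold change of 3.47 ± 0.44 (SE) and an adjusted p of 2.56e-05. Prss12, which encodes neurotrypsin, a synaptic serine protease that cleaves agrin, fell by 1.67 ± 0.19 on the log2 scale (adjusted p = 5.69e-06). It stood at 9.86, 16.97 and 20.4 CPM in ID control and at 4.33, 4.64 and 6.69 CPM in ID insulin, again without overlap. Both genes varied widely among iron-sufficient pups. Slc39a12 ranged from 2.97 to 38.4 CPM in IS control and from 1.74 to 41.3 CPM in IS insulin, so single IS libraries reached down to the ID control range, 1 of 8 and 1 of 7 being within it. Prss12 ranged from 6.30 to 15.9 CPM in IS control and from 4.04 to 12.9 CPM in IS insulin, with 5 of 8 and 4 of 7 libraries inside the ID control range. Slc39a12 and Prss12 were the 2 of 104 called named genes that stayed called in all 13 alternative settings and in all 17 fits that each left out 1 ID library.

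Sun2, an inner nuclear membrane protein that ties the nucleus to the cytoskeleton, was at 33.6, 37.9 and 44.3 CPM in ID control and at 24.6, 26.3 and 31.6 CPM in ID insulin. The fall was small in size but met by every library, with a log2 fold change of -0.48 ± 0.06 and an adjusted p of 8.28e-06. In IS pups Sun2 averaged 29.6 ± 1.96 CPM in control and 28.6 ± 2.39 CPM with insulin (SD, n = 8 and 7). Also lower without overlap were Cd4 (log2 fold change -0.85), a surface protein that rat macrophages and microglia carry as well as T cells, and Akr1c15 (-0.85), an aldo-keto reductase. Fkbp9 (-0.47), a prolyl isomerase of the endoplasmic reticulum, Pxmp4 (-0.47), a peroxisomal membrane protein, Scpep1 (-0.37), a serine carboxypeptidase, Pltp (-0.35), a phospholipid transfer protein, and Fam180a (-0.99) followed the same pattern.

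The genes higher without overlap did varied work. Haghl, related to the glyoxalase that clears methylglyoxal, rose from 7.57, 8.81 and 10.3 CPM to 10.9, 13.3 and 16.6 CPM (log2 fold change 0.60 ± 0.09, adjusted p = 0.000371). Pde3b, a phosphodiesterase that insulin signalling activates to break down cyclic AMP, rose from 11.7, 15.2 and 16.6 CPM to 16.9, 18.4 and 19.9 CPM (0.30 ± 0.06, adjusted p = 0.00715). The lowest ID insulin library of Pde3b lay just above the highest ID control library. Pvr (0.84), an adhesion receptor, Abhd14a (0.64), a hydrolase-domain protein, Ptpdc1 (0.33), a phosphatase, and Hus1 (0.26), part of the DNA damage checkpoint clamp, were higher too. Pnpla1 (1.36), a lipase-family enzyme, completed these, but its call was lost in 15 of 17 fits with 1 library left out. Among genes that overlapped in some libraries, the lowest p-values of those higher included Col11a1 (0.86 ± 0.13, adjusted p = 0.000487), a fibrillar collagen chain. The same held for Dusp15 (0.36 ± 0.06, adjusted p = 0.000659), a phosphatase known from oligodendrocytes.

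**Figure D2:**
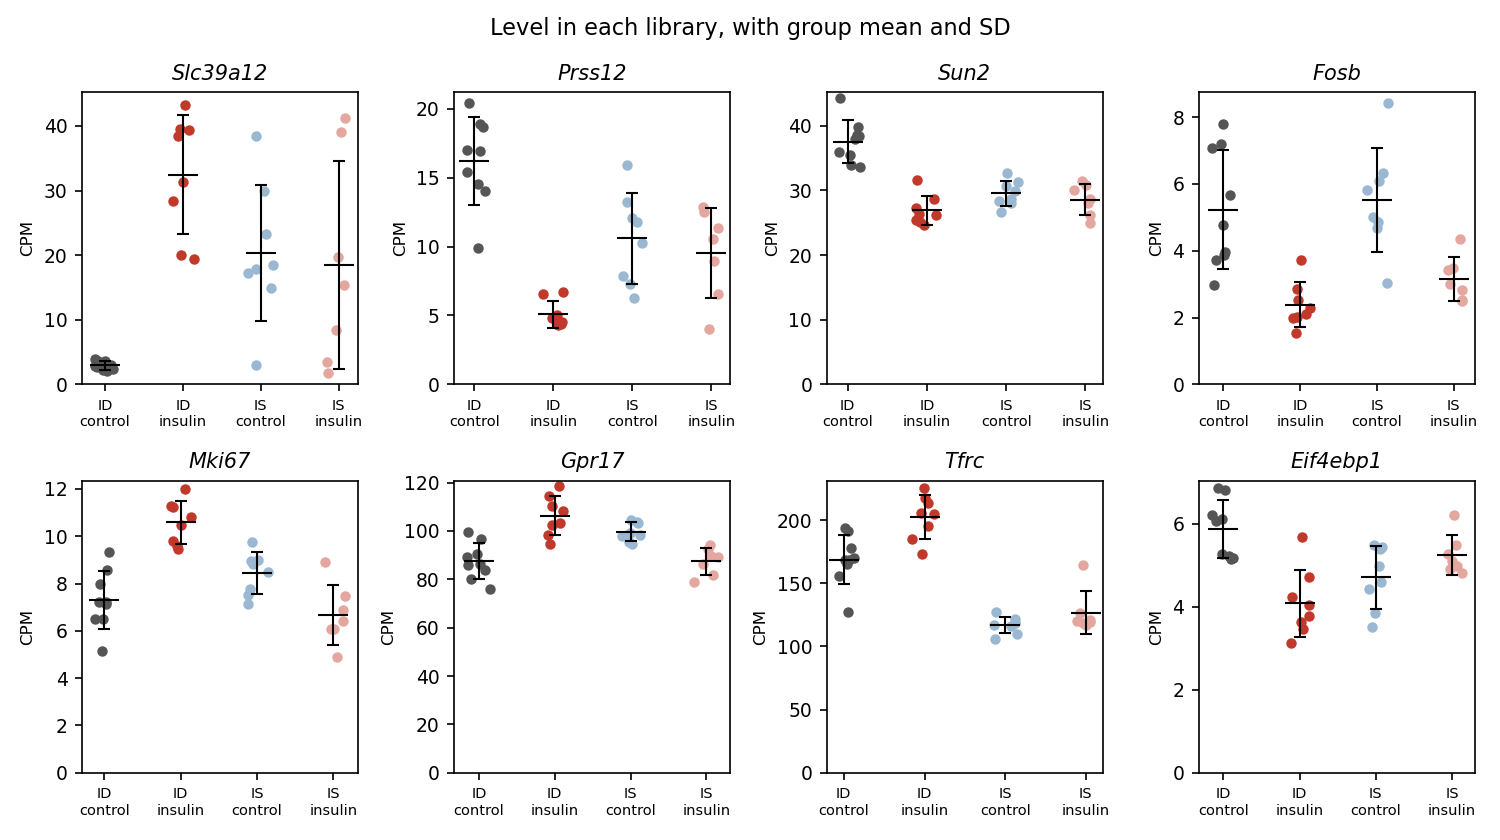
CPM of 8 genes in each library of the 4 groups (points), with the group mean (bar) and SD (whiskers). The groups ID control and ID insulin do not overlap for Slc39a12, Prss12, Sun2 and Mki67, and the IS groups of Slc39a12 spread over both ID ranges.

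The insulin and IGF pathway was examined by role. Of 77 tested genes 2 were higher and 4 lower, 7.79% against 3.82% of all genes. The median log2 fold change was -0.04. None of the 2 tested ligand genes or 4 receptor genes was called. Insr, the insulin receptor, was at 44.0, 48.2 and 57.7 CPM in ID control and at 41.4, 48.9 and 52.1 CPM in ID insulin, and these ranges largely coincide (log2 fold change -0.02 ± 0.06, adjusted p = 0.900). Igf1r, the receptor for insulin-like growth factor 1, was at 12.6, 16.8 and 21.6 CPM and at 10.4, 16.2 and 18.4 CPM (-0.12 ± 0.11, adjusted p = 0.597). Igf1 (0.19, adjusted p = 0.326) and Igf2 (-0.21, adjusted p = 0.586) encode growth factor ligands, and neither was called.

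Downstream of the receptors, 0 of 10 adaptor genes were called. Irs2, the insulin receptor substrate whose level often follows insulin action, had a log2 fold change of -0.16 ± 0.05 and an adjusted p of 0.0638, and Irs1 one of -0.07 (adjusted p = 0.811). Among 15 genes of the phosphoinositide 3-kinase and AKT step, 1 rose: Inppl1 (0.28), which encodes the lipid phosphatase SHIP2 that opposes this kinase. Of 16 mTOR and translation genes 1 was lower and 1 higher. Eif4ebp1, the brake on cap-dependent translation that mTOR releases, was at 5.16, 6.06 and 6.86 CPM in ID control and at 3.13, 3.91 and 5.68 CPM in ID insulin. Of the 8 ID insulin libraries 7 were below every ID control library, and the log2 fold change was -0.53 ± 0.11 (adjusted p = 0.00523). Rps6kb2, an S6 kinase, was higher (0.28 ± 0.08, adjusted p = 0.0415), a call that 11 of 17 fits with 1 library left out did not make. In the MAPK branch Hras, the small GTPase at its head, was the 1 of 11 genes called (-0.21). Of 6 binding protein genes, Igfbp4 (-0.33) and Igfbp7 (-0.20), which bind IGFs outside the cell, fell. That is 33.3%, against 1.86% of all genes called lower. Igfbp7 lost its call in 9 of 17 such fits. None of 8 FoxO genes and targets, which AKT represses, and none of 5 glucose transporter genes was called. Slc2a1, the glucose transporter of the blood-brain barrier, stood nearest the threshold (-0.25, adjusted p = 0.0589). Without ID insulin replicates 3 and 5 the pathway count was 1 higher and 1 lower.

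Iron and zinc handling each had a few called genes. The transferrin receptor Tfrc, which brings iron into cells, was at 127, 169 and 194 CPM in ID control and at 173, 205 and 225 CPM in ID insulin, with 6 of 8 insulin libraries above every control. Its log2 fold change was 0.26 ± 0.07 (adjusted p = 0.0243). Tfrc lost its call in 6 of 13 alternative settings. These were the fits without ID insulin replicates 3 and 5, with the 17 libraries alone, with the tissue covariates and with the replicate block. The others were those against title number 69 alone (adjusted p = 0.0836) and 70 alone (adjusted p = 0.14). Ncoa4, the cargo receptor that delivers ferritin for breakdown, was at 131, 142 and 151 CPM and at 153, 159 and 175 CPM, so its groups did not overlap (0.20 ± 0.04, adjusted p = 0.00618). These were 2 of 29 iron genes, 6.897% against 3.82% of all genes, with a list median of -0.03. None of 8 genes of export and sensing and none of 10 of mitochondrial iron and heme was called. Besides Slc39a12, 0 of 8 other zinc importers, 0 of 8 exporters and 0 of 3 metallothioneins, the zinc-binding proteins, were called. Among zinc importers and exporters the log2 fold changes other than that of Slc39a12 lay between -0.25 and 0.23.

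Immediate early genes are those that neurons switch on within minutes of activity. Of 35 tested, 6 fell and 29 were not called. Of the 20 transcription factors among them 5 fell and 0 rose, 25% against 1.86% of all genes called lower, and all 20 log2 fold changes were negative (median -0.37). Fosb, a subunit of the AP-1 factor, was at 2.97, 4.77 and 7.81 CPM in ID control and at 1.52, 2.20 and 3.72 CPM in ID insulin. In 7 of 8 insulin libraries it was below every control, with a log2 fold change of -1.15 ± 0.20 (adjusted p = 0.00241). Fos, another subunit of AP-1, was at 9.35, 14.6 and 17.8 CPM and at 5.44, 7.84 and 9.72 CPM, and 7 of 8 insulin libraries were below every control (-0.79 ± 0.15, adjusted p = 0.00434). Egr2, a zinc finger factor, was at 3.35, 6.64 and 9.31 CPM and at 1.92, 2.58 and 4.45 CPM, with 5 of 8 below (-1.03 ± 0.22, adjusted p = 0.00889). Nr4a1 (-0.48), an orphan nuclear receptor, and Klf4 (-0.45), a Kruppel-like factor, fell as well, but lost their calls in 10 and 9 of 17 fits with 1 library left out. Of 15 effector genes Nptx2 fell (-0.31), which encodes a pentraxin that clusters AMPA receptors. Egr1 (-0.41, adjusted p = 0.0508), Arc (-0.35, adjusted p = 0.178), which regulates AMPA receptor endocytosis, and Bdnf (-0.09, adjusted p = 0.510), a neurotrophin, were not called. Summed over the 35 genes the level was 948 to 1208 CPM in ID control and 739 to 981 CPM in ID insulin, so the groups overlap. The count of 6 members lower was 3 without ID insulin replicates 3 and 5. The time between handling and collection can set these genes and is not given in the labels.

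Promoters of the listed genes, called or not, were read from RefSeq (rat build GRCr8), from 250 bases before to 50 after the start site. Of the 20 transcription factors 13 had an entry. The motif TGACG is part of the site of the factor CREB. It was found on either strand in 8 of the 13 (61.5%), and in 10 of 13 effector genes with an entry (76.9%). A listed gene counted if any of its entries held the motif. Over all 33469 promoters of the table each entry counted singly, and TGACG occurs in 21.2% of them. The CArG box, the site of serum response factor, was in 2 of the 13 (15.4%), Egr1 and Egr2, against 1.64% of all. Of the 5 transcription factors called lower, Egr2 and Nr4a1 carry TGACG. The Fosb promoter holds neither motif in this window, Klf4 is not among the carriers of either, and Fos is without an entry. The Egr2 promoter, chr20:21054392-21054691 on the minus strand, is shown because it carries both in close order, with the CArG box beginning 83 bases before the start site and the TGACG match, read on the opposite strand, beginning 66 before it. Capitals mark these 2 matches.

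Egr2: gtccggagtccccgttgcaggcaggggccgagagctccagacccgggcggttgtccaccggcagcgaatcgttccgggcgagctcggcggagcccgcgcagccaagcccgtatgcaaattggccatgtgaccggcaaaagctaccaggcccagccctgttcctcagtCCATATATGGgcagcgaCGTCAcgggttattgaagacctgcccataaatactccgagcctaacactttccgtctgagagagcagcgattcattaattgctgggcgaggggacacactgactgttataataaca

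Of 44 cell division genes 3 were called, 6.82% against 3.82% of all genes. Of the 30 mitosis genes among them 3 were called higher and 0 lower, 10% against 1.96% of all genes called higher, and 28 had a positive log2 fold change (median 0.21). Mki67, the proliferation marker that coats mitotic chromosomes, was at 5.16, 7.21 and 9.33 CPM in ID control and at 9.47, 10.65 and 11.998 CPM in ID insulin. All 8 insulin libraries were above every control, with a log2 fold change of 0.54 ± 0.10 (adjusted p = 0.00254). Cenpf, a kinetochore protein, was at 2.37, 3.72 and 4.33 CPM and at 3.68, 5.13 and 6.64 CPM, and 5 of 8 insulin libraries were above every control (0.49 ± 0.12, adjusted p = 0.0161). Prc1, which bundles the microtubules of the spindle midzone, was at 5.43, 6.91 and 10.0 CPM and at 8.27, 9.67 and 17.8 CPM (0.51 ± 0.15, adjusted p = 0.0436). Its highest value was that of ID insulin replicate 3, and its call was lost in 8 of 17 fits with 1 library left out, that library among them. Neither Cenpf nor Prc1 was called without ID insulin replicates 3 and 5. None of 14 DNA replication genes was called (median 0.13), nor any of 9 stem and progenitor cell genes. Dcx, the microtubule protein of young neurons, was the 1 of 15 young neuron genes called. It was at 74.1, 90.9 and 109 CPM in ID control and at 99.7, 110 and 121 CPM in ID insulin, and 5 of 8 insulin libraries exceeded every control (0.27 ± 0.06, adjusted p = 0.0106).

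Promoters of mitotic genes often pair a CCAAT box with the cell cycle genes homology region (CHR), through which the DREAM complex and MYB-MuvB act. Of the 25 mitosis genes with a RefSeq promoter entry, the CHR letters TTTGAA were found on either strand in 18 (72.0%), and CCAAT in 19 (76.0%). Both stood in 16 (64.0%). Over all 33469 promoters the shares were 18.3%, 37.5% and 7.41%, with each entry counted singly rather than by gene. The CHR was in 1 of 11 replication genes with an entry (9.09%). The 3 called genes each carry both motifs, and their promoters are printed 5′ to 3′ to show the spacing, with every match in capitals (CCAAT reads ATTGG on the opposite strand). Mki67 is at chr1:199952544-199952843 on the minus strand, Cenpf at chr13:103760837-103761136 on the minus strand and Prc1 at chr1:143659231-143659530 on the plus strand. The CHR begins at positions -117 and -99 in Mki67, 2 in Cenpf and -18 in Prc1, where 0 is the first transcribed base. In Mki67 the CHR at -99 overlaps a CCAAT match on the opposite strand.

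Mki67: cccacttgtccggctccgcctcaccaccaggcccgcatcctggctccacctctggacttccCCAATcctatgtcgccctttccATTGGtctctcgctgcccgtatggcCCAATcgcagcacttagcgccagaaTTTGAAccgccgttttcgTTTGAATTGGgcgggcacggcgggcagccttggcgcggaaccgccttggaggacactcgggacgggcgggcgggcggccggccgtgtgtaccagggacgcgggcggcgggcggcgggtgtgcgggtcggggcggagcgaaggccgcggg

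Cenpf: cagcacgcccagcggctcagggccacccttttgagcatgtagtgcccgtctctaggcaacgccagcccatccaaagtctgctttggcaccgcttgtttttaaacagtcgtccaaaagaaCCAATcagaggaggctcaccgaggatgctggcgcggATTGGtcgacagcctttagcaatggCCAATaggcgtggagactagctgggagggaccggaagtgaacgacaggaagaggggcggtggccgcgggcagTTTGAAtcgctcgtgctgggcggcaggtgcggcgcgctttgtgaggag

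Prc1: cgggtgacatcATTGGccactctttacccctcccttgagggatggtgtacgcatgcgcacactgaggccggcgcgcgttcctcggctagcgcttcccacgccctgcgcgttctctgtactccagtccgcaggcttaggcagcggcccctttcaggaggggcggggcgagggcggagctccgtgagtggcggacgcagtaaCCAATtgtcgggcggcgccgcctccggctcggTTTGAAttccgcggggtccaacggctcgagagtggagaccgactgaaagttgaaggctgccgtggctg

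The oligodendrocyte lineage had 6 members higher and 1 lower of 42 (16.7%, against 3.82% of all genes), and 39 of 42 log2 fold changes were positive (median 0.16). Committed precursors, the cells between proliferating precursors and myelinating cells, held 3 of the called genes among 8. That is 37.5%, against 1.96% of all genes called higher. Gpr17, a receptor that marks this stage, was at 76.1, 86.4 and 99.5 CPM in ID control and at 94.8, 106 and 119 CPM in ID insulin. In 6 of 8 insulin libraries it exceeded every control (0.28 ± 0.05, adjusted p = 0.00232). Enpp6 (0.44 ± 0.09, adjusted p = 0.00737), a choline phosphodiesterase of newly forming oligodendrocytes, and Itpr2 (0.44 ± 0.10, adjusted p = 0.0106), an intracellular calcium channel, rose as well. Of 9 precursor genes Vcan rose (0.22), which encodes the matrix proteoglycan versican, and Pdgfra (0.03) and Cspg4 (0.03) did not pass the test. Of 25 mature myelin genes Gjc3 (0.44), a gap junction protein, and Ugt8 (0.31), the enzyme of galactosylceramide synthesis, were higher. Vcan lost its call in 8 and Ugt8 in 11 of 17 fits with 1 library left out. Mal, a myelin membrane sorting protein, was lower: 418, 519 and 685 CPM in ID control and 317, 350 and 497 CPM in ID insulin (-0.48 ± 0.11, adjusted p = 0.0116). Mbp, which encodes myelin basic protein, was not called (0.25, adjusted p = 0.171). It lay between 5812 and 9075 CPM in ID control and between 6926 and 13591 CPM in ID insulin, where the highest was replicate 3. Without ID insulin replicates 3 and 5 the count for the lineage was 3 higher and 1 lower. Of 24 sterol synthesis genes 3 were higher and 0 lower, 12.5% against 1.96% of all genes called higher, among them Hsd17b7 (0.27) and Sc5d (0.13), enzymes of the steps to cholesterol.

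None of 8 dentate granule cell, 16 GABAergic interneuron or 9 neurotrophin genes was called. Coch (-0.93) and Wfs1 (-0.38) fell among 12 genes listed for pyramidal cells, 16.7% against 1.86% of all genes called lower. Coch was at 14.9, 27.3 and 42.0 CPM in ID control and at 11.7, 13.4 and 19.7 CPM in ID insulin. It is also known from the inner ear and connective tissue. Coch was not called against title number 69 alone (-0.95, adjusted p = 0.0567) or with the 4 tissue list means as covariates. Coch and the meninges gene Ptgds were both lowest in replicate 4 of ID control and replicate 7 of ID insulin. Both were highest in replicate 2 of ID insulin, but in different libraries of ID control. The part of meninges in the fall of Coch was not tested. Of 36 glutamatergic synapse genes 1 was called (2.78%, against 3.82% of all genes): Nrgn, neurogranin, the postsynaptic calmodulin-binding protein. It lay between 1070 and 1296 CPM in ID control and between 723 and 1216 CPM in ID insulin (-0.32 ± 0.07, adjusted p = 0.0133), and was not called without ID insulin replicates 3 and 5. Camk2a, a kinase of the postsynaptic density, was not called (-0.10, adjusted p = 0.442).

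Several lists of energy and stress genes held called members. Of 82 nuclear genes of the respiratory chain 4 were lower and 0 higher, 4.88% against 3.82%. Ndufb10, a complex I subunit, was at 64.4, 78.3 and 85.2 CPM in ID control and at 59.8, 64.3 and 67.5 CPM in ID insulin (-0.27 ± 0.05, adjusted p = 0.00232). The complex I subunits Ndufa10 (-0.16) and Ndufv3 (-0.15) and the complex IV subunit Cox4i1 (-0.21) were the others. None of 13 mitochondrially encoded genes was called (median 0.11). Of 15 glycolysis genes Aldoa fell (-0.19), which encodes aldolase, 6.67% called against 3.82% of all genes. Of 16 hypoxia-inducible genes Ero1a (0.19), an oxidase of protein folding, was higher, and the low-level carbonic anhydrase gene Ca9 (-1.86), Ndrg1 (-0.37) and Mxi1 (-0.16), a MYC antagonist, were lower. The share called was 25%, against 3.82% of all genes, and the list median was -0.02. Ero1a lost its call in 14 and Ndufv3 in 10 of 17 fits with 1 library left out. Per1 (-0.41) and Nr1d1 (-0.27) of the circadian clock were lower and Per3 (0.21) higher, though Per3 lost its call in 13 of 17 such fits. Of 16 clock genes 18.75% were called, against 3.82% of all genes. Of 13 genes that respond to glucocorticoids Nfkbia (-0.50) and Errfi1 (-0.34) were lower, 15.4% against 1.86% of all genes called lower. In this list 12 of the 13 log2 fold changes were negative (median -0.27). Summed over the 13 genes the level was 436 to 536 CPM in ID control and 362 to 419 CPM in ID insulin, without overlap. In the interferon list of 31, Rsad2, the antiviral enzyme viperin, was higher and Ifi27 and Ifit3 were lower. That is 9.68% called, against 3.82% of all genes. Rsad2 was not called against title number 69 alone (0.96, adjusted p = 0.137) or with the 4 tissue list means as covariates. In ID insulin replicates 1, 3, 5 and 7 it was at 22.1, 22.9, 25.2 and 27.9 CPM. These libraries were also the highest of the group for the erythroid gene Alas2. The part of blood in the rise of Rsad2 was not tested.

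**Figure D3:**
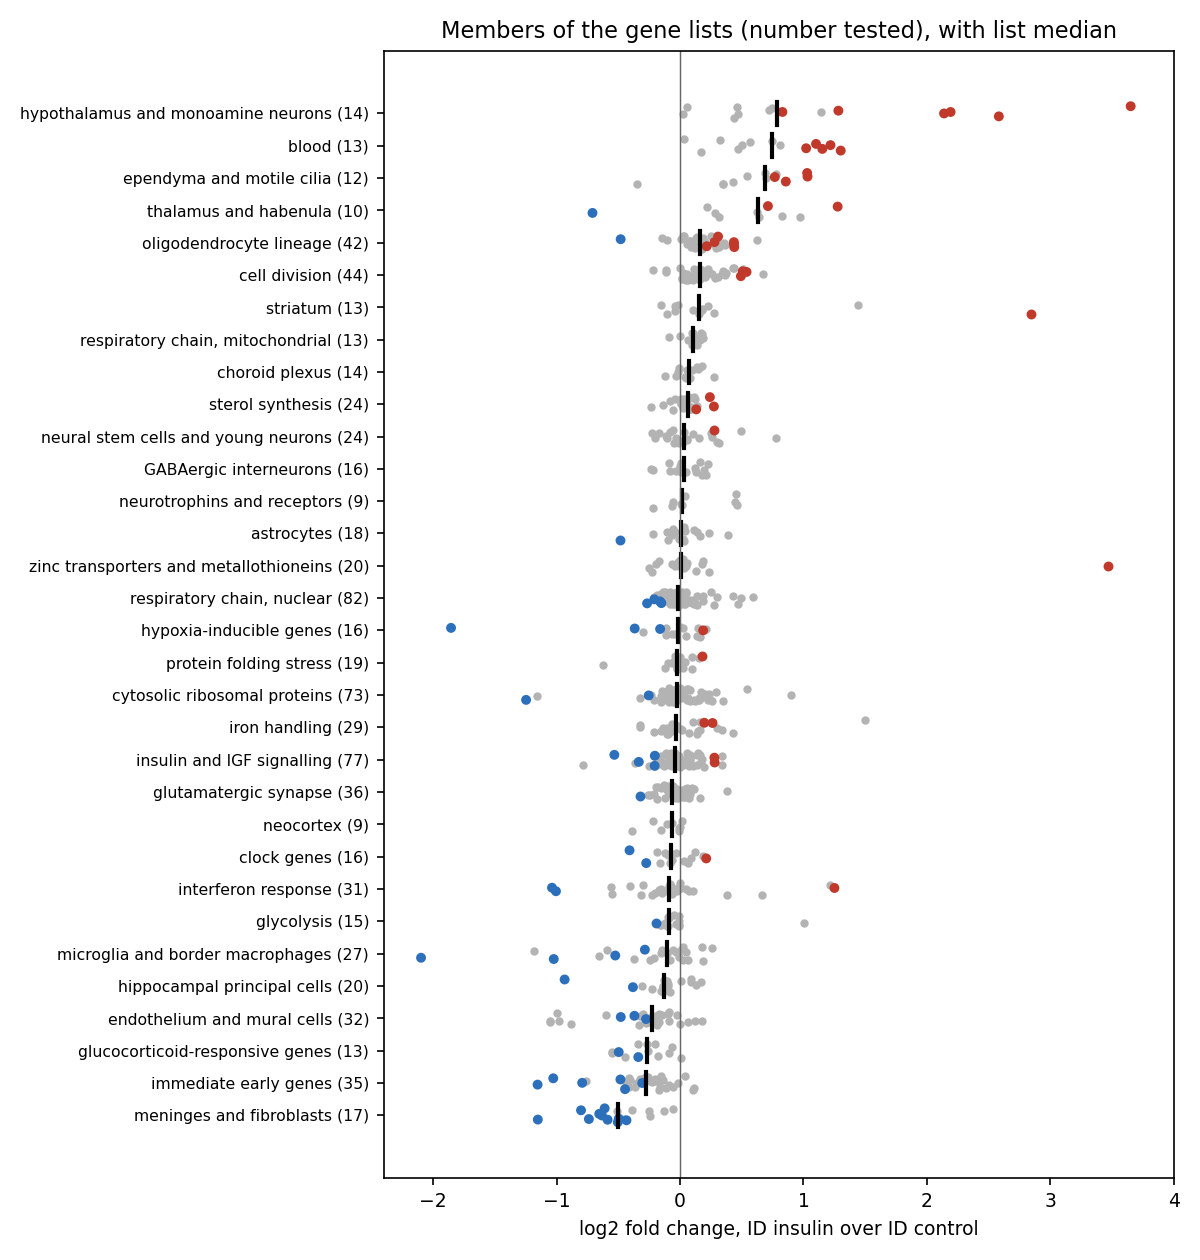
Log2 fold change of each tested member of 32 gene lists (points, coloured where called, red higher and blue lower), with the list median as a black bar and the number tested in brackets. The medians run from -0.50 for meninges and fibroblasts to 0.79 for hypothalamus and monoamine neurons.

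Of 17 meninges and fibroblast genes 10 fell and 0 rose, 58.8% against 1.86%, with a median of -0.50. Fbln1, the matrix protein fibulin 1, had the lowest p of them. It was at 27.8, 39.1 and 47.5 CPM in ID control and at 20.1, 27.3 and 29.7 CPM in ID insulin (-0.59 ± 0.11, adjusted p = 0.00445). Pcolce (-0.50), an enhancer of collagen processing, Aldh1a2 (-0.80), which makes retinoic acid, and Ptgds (-1.15), the prostaglandin D synthase of the leptomeninges, fell too. Summed over the list, ID control libraries held 954 to 2198 CPM and ID insulin libraries 444 to 1001 CPM. In bulk tissue, fewer cells of a type and less RNA per cell cannot be told apart. The count of 10 was 6 without ID control replicate 5, 4 against title number 69 alone and 1 against 70 alone, and 7 without ID insulin replicates 3 and 5. Of 32 genes of blood vessels 3 fell and 29 were not called, 9.38% against 1.86% of all genes called lower. Of the 14 mural cell genes Vtn fell without overlap, the matrix protein vitronectin that pericytes make. It was at 31.4, 38.2 and 44.2 CPM in ID control and at 19.1, 27.9 and 31.4 CPM in ID insulin, where the nearest libraries almost met (-0.48 ± 0.09, adjusted p = 0.00254). Itm2a (-0.28) and Cdh5 (-0.37), the cadherin of endothelial junctions, fell among 18 endothelial genes, Cdh5 losing its call in 12 of 17 fits with 1 library left out. The list of border macrophages and MHC class II had 2 of 10 lower (20% against 1.86%), Cd74 (-1.02), the class II chaperone, and RT1-Bb (-2.10). Microglia had 2 of 17 lower (11.8% against 1.86%), Tmem119 (-0.28) and Olfml3 (-0.52), whose calls were lost in 4 and 10 of 17 such fits.

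Of 13 blood genes 5 rose (38.5%, against 1.96% of all genes called higher) and 0 fell, with a median of 0.75. Hbb, a globin gene, was at 350, 502 and 892 CPM in ID control and at 347, 1036 and 2056 CPM in ID insulin, so the groups overlap (1.10 ± 0.26, adjusted p = 0.0167). Alas2 (1.15), the erythroid enzyme of heme synthesis, Slc4a1 (1.30), the anion exchanger of red cells, Alox15 (1.22), a lipoxygenase of reticulocytes, and Rhd (1.02), a red cell antigen, rose with it. The blood sum was 1458 to 3464 CPM in ID control and 1408 to 5893 CPM in ID insulin, highest in replicate 7. The count stayed at 5 without replicate 7. Without ID insulin replicates 3 and 5 the count was 1, and against title number 69 alone it was 0.

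Of 12 ependyma and motile cilia genes 4 rose (33.3%, against 1.96% of all genes called higher): Dynlrb2 (1.03), a dynein light chain, Tmem212 (1.03), Ccdc153 (0.77) and Dnah12 (0.86), an axonemal dynein. Dnah12 lost its call in 12 of 17 fits with 1 library left out. The ependyma sum was 54.8 to 106 CPM in ID control and 70.4 to 202 CPM in ID insulin, highest in replicate 3, and 0 were called without replicates 3 and 5. Of 14 hypothalamus and monoamine neuron genes 6 rose (42.9% against 1.96%), with a median of 0.79. Slc18a2, the vesicular monoamine transporter, was at 0.669, 1.44 and 2.88 CPM in ID control and at 1.10, 5.55 and 18.3 CPM in ID insulin (2.19 ± 0.49, adjusted p = 0.0105). Baiap3 (1.28) and Magel2 (0.83) also rose, as did Calcr, Hcrt and Trh, whose median levels in both groups were under 3 CPM. Baiap3 lost its call in 10 and Magel2 in 11 of 17 such fits. That sum was 102 to 173 CPM in ID control and 103 to 624.8 CPM in ID insulin, highest in replicate 8, and without replicate 8 the count was 1. Of 10 thalamus and habenula genes Prkcd (1.28) and Patj (0.71) rose and Lhx9 (-0.71) fell, 30% called against 3.82% of all genes. Prkcd lost its call in 8 of 17 such fits. The sum of this list reached 664 CPM in replicate 5 against 158 to 243 CPM in ID control, and without replicates 3 and 5 the count was 0. Of 13 striatum genes 1 was called (7.69%, against 3.82% of all genes), Isl1, which was higher. None of 9 neocortex genes was called, and 7 of the 9 log2 fold changes were negative (median -0.06). None of 14 choroid plexus genes was called. Ttr, its transthyretin, ran from 1074 to 5102 CPM in ID control and from 277 to 5561 CPM in ID insulin. The part of neighbouring tissue in the gene groups above was not tested, beyond a fit with the choroid plexus, blood, meninges and thalamus list means as covariates. That fit called 19 genes in all.

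**Figure D4:**
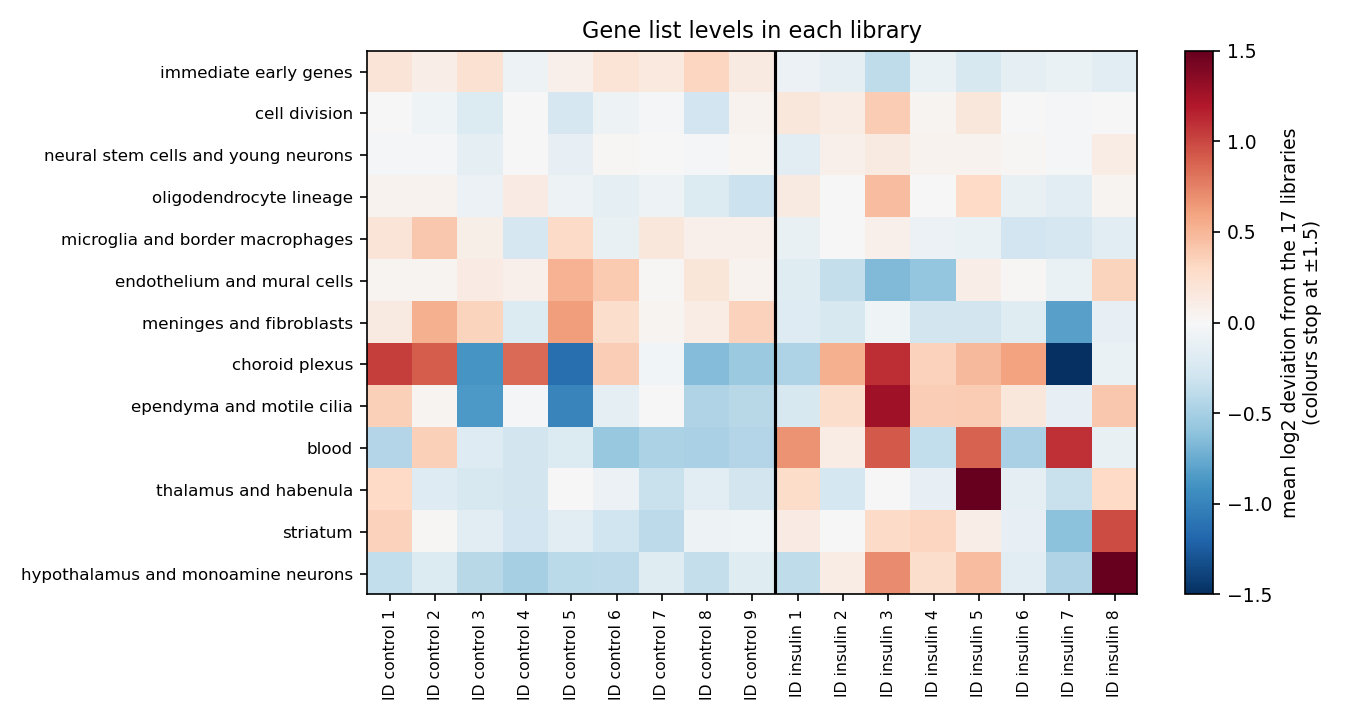
Mean log2 deviation of each list's genes from their mean over the 17 libraries, by library (columns, ID control left of the line), with colours that stop at 1.5 in either direction. Meninges genes are low in ID insulin replicate 7, ependyma genes high in replicate 3, thalamus genes in replicate 5 and hypothalamus genes in replicate 8.

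The same treatment in iron-sufficient pups called 19 genes (0.123%), and 0 genes were called under both diets. DESeq2 called 206 genes in IS pups, beside 819 in ID pups. At an unadjusted p under 0.05, 2515 genes passed in IS pups and 3017 in ID pups. A difference between these counts is no test, so the responses were compared by the interaction of diet and insulin, which called 145 genes (0.939%), 79 with the higher response in ID pups (0.512%) and 66 with the lower (0.427%). Of the 145, 81 were also called within ID pups, 40 higher and 41 lower, and 79 of those 81 had the opposite sign in IS pups. Choosing genes by both tests favours an opposite sign, and 0 of the 81 were called within IS pups. The signs therefore do not show that insulin shifted these genes in IS pups. Gpr17 had an interaction of 0.47 ± 0.07 on the log2 scale (adjusted p = 0.00244), since it averaged 87.6 and 106 CPM in ID control and ID insulin and 99.7 and 87.5 CPM in IS control and IS insulin. Mki67 had one of 0.88 ± 0.14 (adjusted p = 0.00433), at 7.30 and 10.6 CPM in ID and 8.43 and 6.68 CPM in IS pups. For both genes the IS response, -0.19 and -0.34, was itself not called. Slc39a12 (3.64 ± 0.60), Ptpro (0.55 ± 0.10), a receptor phosphatase, and Tspyl5 (0.44 ± 0.09) completed the 5 positive interactions of lowest p.

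The negative interactions of lowest p were those of Thrsp (-0.92 ± 0.15), a nuclear protein of lipid synthesis, Dbp (-0.49 ± 0.09), a transcription factor of clock output, Mphosph6 (-0.92 ± 0.16), an RNA exosome cofactor, Prss12 (-1.53 ± 0.27) and Scg3 (-0.34 ± 0.06), a granin of secretory vesicles. Thrsp averaged 17.1 and 11.8 CPM in ID control and ID insulin and 14.8 and 19.1 CPM in IS control and IS insulin. Dbp and Scg3 were not called within ID pups (-0.16, adjusted p = 0.118, and -0.14, adjusted p = 0.0672). Eif4ebp1, Mal, Dcx, Itpr2, Cenpf, Sun2 and Vtn were also called in the interaction, whereas Tfrc (adjusted p = 0.462), Fos (0.256), Fosb (0.578) and Egr2 (0.260) were not. Fosb had a log2 fold change of -0.81 in IS pups beside -1.15 in ID pups. The interaction count ran from 81 to 594 when 1 ID library was left out, the highest without ID insulin replicate 3. Leaving out ID control replicate 1 gave 391 genes, and taking title number 69 alone as the ID controls gave 12.

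**Figure D5:**
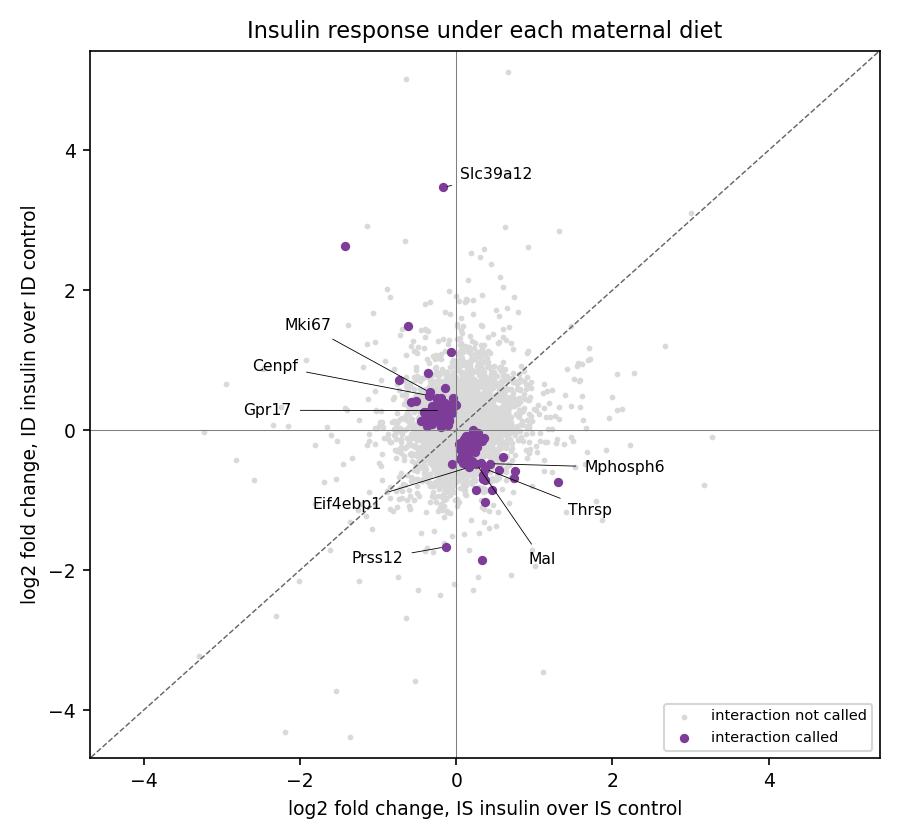
Log2 fold change with insulin in IS pups (x axis) against that in ID pups (y axis), which share no library, with the 145 genes of a called interaction in purple and the dashed line marking equal responses. Slc39a12 and Prss12 lie far from the line through their ID response, and Gpr17, Mki67 and Mal lie in the quadrants of opposite sign.

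Within ID control, title numbers 69 (5 libraries) and 70 (4) allowed the comparison to be repeated against each. Against 69 alone 150 genes were called, and against 70 alone 232. Both calls were met by 38 genes, 18 higher and 20 lower, all 38 also called against the 9 together. Of the 589, 588 kept their direction against each number. The 589 were chosen against these same 9 controls, so that agreement was close to fixed in advance. Among the 38 were Prss12 (-1.54 against 69 and -1.81 against 70), Slc39a12 (3.44 and 3.49), Fosb (-0.99 and -1.33), Egr2 (-1.08 and -0.97), Mki67 (0.47 and 0.62), Gpr17 (0.28 and 0.27), Vtn (-0.49 and -0.48) and Sun2 (-0.55 and -0.39). Both sets of controls share the 8 ID insulin libraries, so these values are not independent. The groups of 14 of the 38 did not overlap in any library, beside 31 of all 15439 genes tested (0.201%). A call against both numbers favours such genes, so the higher share follows in part from that choice.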

How the data were processed

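The authors deposited 1 table of raw counts, with genes in rows and libraries in columns. Per the submitters' processing notes, reads were trimmed with Trimmomatic (version 0.40), inspected with FastQC, aligned with HISAT2 (version 2.1.0) and counted with featureCounts, and edgeR is among the tools named. The notes list builds of rat (Rnor_6.0) and mouse without saying what each was for. Strand use and the handling of reads that match several places are not given in the sources used here, so overlapping, antisense and near-identical genes are uncertain. Of 32883 genes 9663 had no count in any library, and 25 names turned into dates were tested but not named. The table holds 0 columns of other samples.

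The test was edgeR (version 4.0.16, in R version 4.3.3) on these counts, with library sizes scaled by TMM, low genes removed by filterByExpr on the groups (15439 genes kept), 1 coefficient per group over all 32 libraries, glmQLFit and glmQLFTest (two-sided), and Benjamini-Hochberg adjustment over all genes. The standard error is the log2 fold change divided by the root of F. On counts simulated for this comparison with 200 of 15439 genes changed, the test recovered 69% of changes of 0.5 and 89% of changes of 1 on the log2 scale, and 4 of 162 calls were false. These rates describe the simulated counts only. In the deposited libraries ID insulin replicate 3 stood apart and markers of neighbouring tissue varied. The share of false calls there was not tested.

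Gene lists are described by members called and by median, beside the same over all genes, with no test of the list. Named genes were called genes with a symbol, averaging 1 or more in log2 CPM over the 17 libraries, that fell under 1 of these: the 10 largest changes per direction without overlap, the 5 lowest p per direction, called list members, and the 5 lowest p per direction of the interaction. To these were added 21 genes named whatever their result, and other genes are named as members of a list or count. Some genes that the rule names are not reported here. The groups, lists and named genes were chosen with earlier results of these data known. Alternatives were DESeq2 (version 1.42.0) and its size factors, limma voom (version 3.58.1), other count filters, the compared groups alone, covariates, each title number of ID control, a replicate block, the earlier quasi-likelihood method and each ID library left out. The earlier quasi-likelihood method and the non-overlap counts under alternatives were chosen after the data were seen.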

Additional observations from a re-analysis of the deposited data

Results flagged for a closer look

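Among 118 named genes, 30 had an insulin response that differed between the diets by the interaction test of edgeR, with adjusted p under 0.05. The values are ID minus IS on the log2 scale. The response in ID pups was higher for Slc39a12 (3.64), Mki67 (0.875), Cenpf (0.835), Itpr2 (0.683), Ptpro (0.554), Ptpdc1 (0.489), Gpr17 (0.467), Tspyl5 (0.441), Dcx (0.439) and Dusp15 (0.362). It was lower for Prss12 (-1.53), Akr1c15 (-1.11), Thrsp (-0.921), Mphosph6 (-0.916), Mal (-0.736), Eif4ebp1 (-0.693), Vtn (-0.606), Pxmp4 (-0.563), Pltp (-0.502) and Dbp (-0.49). Smaller differences of that sign were those of Scpep1 (-0.462), Calhm2 (-0.455), Sun2 (-0.431), Nr1d1 (-0.415), Itm2a (-0.41), Igfbp7 (-0.349), Scg3 (-0.338), Ndufb10 (-0.314), Mxi1 (-0.314) and Ndufa10 (-0.248).

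In 28 of 236 combinations of a named gene and an ID group, 1 library lay far from the others by Dixon's test at the 95% level, which chance alone gives in about 1 of 20. The values that follow are that library's CPM. ID control replicate 1 had the top value for Itpr2 (42.66), Patj (19.03), Dynlrb2 (6.932), Prkcd (35.59) and Slc18a2 (2.885) and the bottom value for Ndufb10 (64.39). ID insulin replicate 3 had the top value for Mbp (13590), Prc1 (17.8), Ccdc153 (19.24), Tmem212 (10.05) and Dynlrb2 (18.28) and the bottom value for Irs2 (64.65). ID control replicate 2 had the top value for Irs1 (31.06), Hbb (892.4), Alas2 (38.19), Alox15 (227.2) and Slc4a1 (26.15). ID insulin replicate 8 had the top value for Magel2 (24.2), Baiap3 (129.7) and Slc18a2 (18.31). ID control replicate 5 had the top value for Col3a1 (246.1) and Igfbp7 (112.5). ID insulin replicate 7 had the bottom value for Pcolce (5.416) and Igf2 (136.6). ID control replicate 3 had the top value for Nfkbia (34.47). ID control replicate 6 had the top value for Klf4 (10.83). ID insulin replicate 5 had the top value for Prkcd (172.1). ID insulin replicate 6 had the bottom value for Ndufv3 (44.53).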

How the results depend on the processing

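The count of 589 genes called between ID insulin and ID control was 278 with the compared libraries alone, 19 with the 4 tissue list means as covariates, 150 and 232 with title number 69 or 70 as the only controls, and 358 without ID insulin replicates 3 and 5. Leaving out 1 library gave 323 (without ID control replicate 5) to 806 (without ID control replicate 1). The 19 genes called in IS pups became 206 with DESeq2. The 145 genes of the interaction became 94 with no filter on low counts, 29 with the covariates, 12 with title number 69, 433 without ID insulin replicates 3 and 5, 491 with limma voom and 423 with DESeq2, and 81 (without ID control replicate 7) to 594 (without ID insulin replicate 3) with 1 library left out. The 31 genes without overlap became 124 and 411 with title number 69 or 70 and 92 without ID insulin replicates 3 and 5, and 32 to 71 with 1 library left out. Fewer libraries leave fewer to separate. With the covariates Ptgds reversed to 0.29 and Slc6a13 to 0.040 on the log2 scale, both genes being in the meninges list used there. The cause of the other changes was not tested. Of 104 called named genes, 101 lost their call with the replicate block and 98 with the covariates. Others lost it with title number 69 or 70 (65 and 58), without replicates 3 and 5 (44) and with the compared groups alone (36), while 68 kept it in every fit with 1 library left out. The second number of the titles, taken as a replicate block, left 9 genes and compared only numbers 1 to 4, which both groups share. Same-numbered samples showed little correlation: over 8 pairs it ran from -0.167 to 0.133, with 1 above 0.1. What the second number stands for is not given, and whether it marks a litter or an order of processing was not tested. Depth limits mainly genes of low level, where called changes were also larger.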
